A study of Mesocricetus auratus with 8 samples.

Results

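The expression of 10 genes of cellular iron handling was examined in cultured primary satellite cells (SCs) of the Syrian hamster, stem cells that lie along muscle fibres and repair them. The genes were taken by symbol from a fixed list: Tfrc, Slc11a2, Slc39a14 and Steap3 for uptake, Fth1 and Ncoa4 for storage and its release, Slc40a1 for export, Hmox1 for heme breakdown, and Ireb2 and Aco1 for the control of the others. All 10 had values among the 17590 genes with values in the table, and all 10 were among the 12506 genes with enough counts to be tested. The SCs came from the hindlimb muscles of wild-type, sexually mature male hamsters (Slc:Syrian) and were enriched by preplating, which leaves behind cells that attach early. Control libraries (n = 4) were made before cold exposure, on day 3 at 37°C by their titles, and cold libraries (n = 4) after a further 24 h at 4°C without a medium change. In both groups, by the treatment protocol, 48 h of culture were followed by 24 h in growth medium with 100 mM HEPES, a pH buffer. By the titles and the protocol, cold libraries were thus from cultures 24 h older than the controls. The time and the temperature cannot be told apart. The treatment labels of control replicates 1 to 4 read 3, 4, 5 and 6 days at 37°C, which the titles do not repeat. By these labels the controls would differ in age, and the 24 h difference would not hold for all of them.

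Iron is needed for heme and for iron-sulfur clusters, and free ferrous iron drives the lipid peroxidation of ferroptosis, a form of cell death known from cells kept in the cold. Cells take up iron mainly as transferrin bound to its receptor, store it in ferritin shells and release it through ferroportin. Iron regulatory proteins bind hairpins in the mRNAs of several of these genes when iron is scarce. They stabilise the mRNA of the transferrin receptor and block the translation of ferritin, so that a steady ferritin mRNA level leaves the ferritin protein level unknown. Reads were counted per gene, so transcripts with and without such a hairpin were not told apart.

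Libraries held between 16530747 and 18533801 estimated read counts. The myogenic label was checked on marker genes: Myod1 lay between 424 and 693 TPM (a transcript level scaled for gene length and library size), Des between 724 and 924 TPM and Pax7 between 10.8 and 16.1 TPM. Fibroblast markers were also present, with Thy1 between 480 and 662 TPM. The study reported a high purity of its hamster cultures by Pax7 and MyoD staining, and these transcript levels do not give shares of cells. Of the 6 macrophage markers with values, Ptprc, Adgre1, Marco and Mrc1 were at most at 0.36 TPM, Csf1r lay between 2.31 and 4.55 TPM, and Cd68, which other cells also carry, lay between 23.3 and 52.0 TPM. In such bulk samples, fewer cells of a type and less RNA per cell cannot be told apart.

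None of the 10 iron genes differed between the cold and the control libraries beyond the spread between replicates. Their fold changes lay between 0.92 and 1.03, the control and cold values overlapped in every gene, and the median log2 fold change was −0.037, against 0.0071 over all genes tested. With edgeR (quasi-likelihood test, Benjamini-Hochberg over all genes tested), 0 of 10 were called at an adjusted p under 0.05, where 0.072% of all genes were called. With a change of at least 2-fold required in addition, 0 of 10 were called, against 0.04% of all genes. At an unadjusted p under 0.05 the edgeR count was 0 of 10, against 6.7% of all genes, and at an adjusted p under 0.05 DESeq2 called 0 of 10, against 1.14% of all genes, and limma on log2(TPM + 0.1) 0 of 10, against 0.029%.

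The groups share replicate numbers, and same-numbered libraries deviated together. Replicates 1 and 2 of different groups also did so, as did replicates 3 and 4, though somewhat less. In the blocked fit, which adds the replicate number as a term, edgeR called 0 of 10 at an adjusted p under 0.05, against 5.33% of all genes (0.848% with the fold threshold), and 1 of 10 (Hmox1) at an unadjusted p under 0.05, against 18.2%. The groups did not overlap in TPM in 0 of 10 genes, against 4.68% of all genes (2.27% with the cold libraries higher and 2.41% with them lower). In 0 of 10 genes was the cold library higher in 4 of 4 pairs of the same replicate number, against 12.8% of all genes, or lower in 4 of 4, against 10.5%. In exact two-sided permutation tests on log2 TPM, p lay between 0.543 and 1, where the smallest p that 4 libraries against 4 allow is 0.0286. These tests did not use the pairs, so differences between replicate numbers, large in Hmox1 and Slc40a1, could hide a small difference with cold.

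A p that misses the threshold does not show that levels were equal, so the intervals are given. The 95% intervals of all 10 fold changes lay inside a 2-fold change in either direction, reaching from 0.582 to 1.63 over the 10 genes. With the replicate block they narrowed to between 0.868 and 1.11 in the 9 genes other than Steap3, whose interval was 0.675 to 1.37. The blocked interval of Hmox1, 0.872 to 0.999, just left out equal levels, at an edgeR adjusted p of 0.268.

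**Figure D1:**
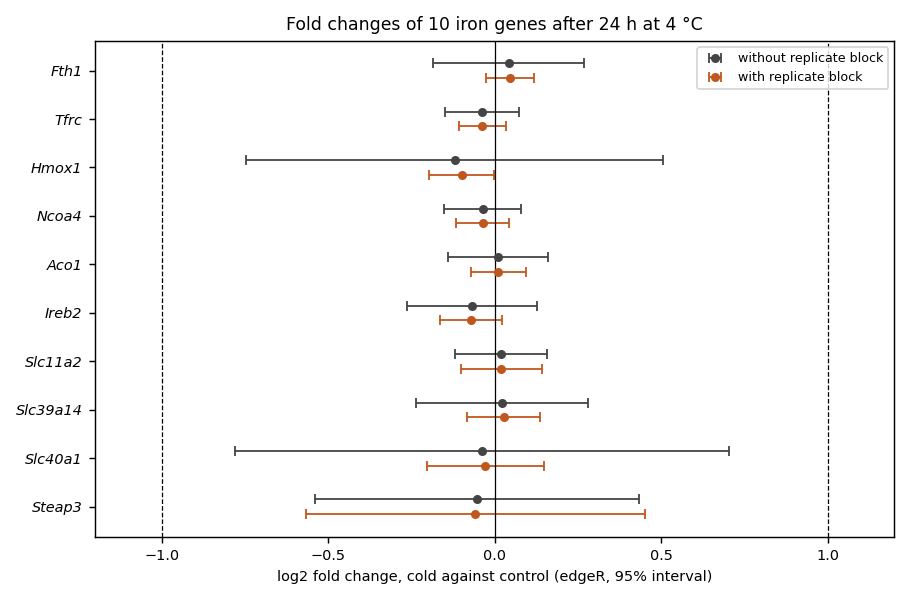
Log2 fold change of each iron gene, cold against control (x axis), with 95% intervals from edgeR, without (grey) and with (orange) the replicate number as a block; dashed lines mark a log2 fold change of 1 in either direction. All 10 intervals lie between the dashed lines in both fits, and those of Hmox1 and Slc40a1 narrow most with the block.

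The levels spanned a wide range. The ferritin heavy chain gene Fth1 had a mean of 2467 TPM over the 8 libraries, at the 99.4th percentile of the genes tested, and stood 14.1-fold above the next gene, Tfrc, at 175 TPM. Tfrc and Hmox1 (126 TPM) followed, and their ranges overlapped. Ncoa4 (65.4 TPM) and Aco1 (60.8 TPM) also overlapped each other. Ireb2 (23.1 TPM), Slc11a2 (20.8 TPM) and Slc39a14 (17.0 TPM) each overlapped their neighbour in this order. Slc40a1 (5.61 TPM) lay below them without overlap, and Steap3 (0.554 TPM) was at the 4.43th percentile.

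**Figure D2:**
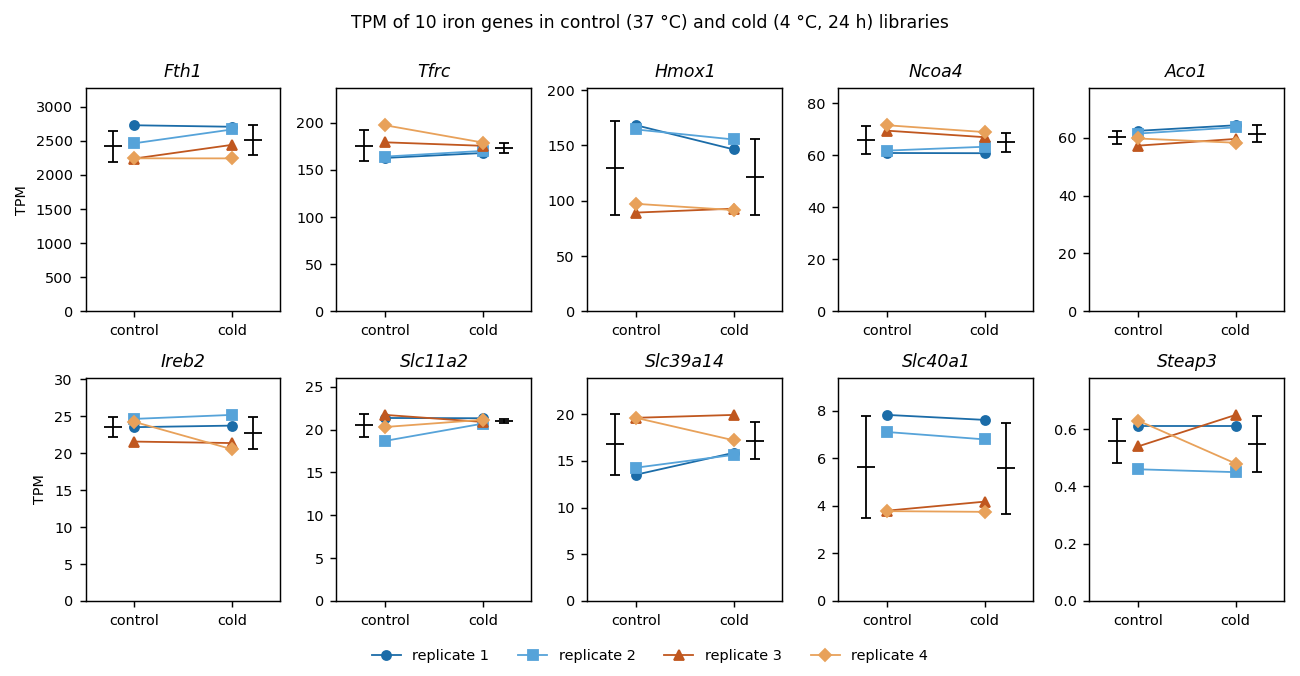
TPM (y axis, from 0) of the 10 iron genes in control and cold libraries; each line joins the libraries of the same replicate number, and black bars give the mean and SD of 4 libraries. The control and cold values overlap in every gene, while replicates 1 and 2 (blue) stand furthest apart from replicates 3 and 4 (orange) in Hmox1, Slc40a1 and Slc39a14. In Fth1, Tfrc, Ncoa4 and Aco1 these sets of replicates also do not overlap, at smaller differences.

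Of the uptake genes, Tfrc (NCBI Gene 101833501) encodes the transferrin receptor, which brings iron-loaded transferrin into the cell. Its levels were 163, 164, 179 and 197 TPM in control replicates 1 to 4 and 168, 170, 176 and 179 TPM in cold replicates 1 to 4. The highest and the lowest values were both controls, and the cold values lay between them. The control mean was 176 ± 16.2 TPM and the cold mean 173 ± 5.05 TPM (SD, n = 4, as for all means below). On the log2 scale edgeR put the difference at −0.038 with a standard error of 0.049 (adjusted p = 0.999). The cold library was higher in 2 of 4 pairs of the same number.

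Slc11a2 (101826428), the divalent metal transporter that moves iron out of the endosome, had 21.4, 18.7, 21.7 and 20.3 TPM in the controls and 21.3, 20.7, 20.9 and 21.2 TPM in the cold. It was the steadiest of the 10 genes in the cold libraries, which lay within the control range. Its fold change was 1.01 (95% interval 0.92 to 1.12). Slc39a14 (101841614), a zinc and iron transporter that takes up iron not bound to transferrin, had 13.5, 14.3, 19.6 and 19.6 TPM in the controls and 15.9, 15.7, 19.9 and 17.2 TPM in the cold. In both groups replicates 3 and 4 were above replicates 1 and 2, and its fold change was 1.02 (95% interval 0.849 to 1.21). The related transporter Slc39a8, no member of the list, was read beside it, and the ratio of Slc39a14 to Slc39a8 in TPM was 2.43 ± 0.331 in the controls and 2.37 ± 0.341 in the cold.

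Steap3 (101833496) encodes a ferrireductase of the endosome, which reduces ferric to ferrous iron. It was near the limit of detection, with 0.61, 0.46, 0.54 and 0.63 TPM in the controls and 0.61, 0.45, 0.65 and 0.48 TPM in the cold, or between 14 and 20 reads per library. Counting error alone is 22.4% to 26.7% of such counts, no smaller than the spread seen between libraries. Steap1 and Steap2, of the same family, lay between 23.3 and 38.6 TPM and between 18.4 and 28.7 TPM. They were named after their values were seen.

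Of the storage genes, Fth1 (101822971) encodes the ferritin subunit that oxidises iron for storage. It had 2729, 2464, 2240 and 2244 TPM in the controls and 2707, 2667, 2441 and 2243 TPM in the cold. Replicate 1 was highest in both groups, and all cold values lay inside the control range. The control mean was 2419 ± 231 TPM and the cold mean 2514 ± 216 TPM. The log2 difference in edgeR was 0.042 with a standard error of 0.10 (adjusted p = 0.999), and it became negative in 4 of the 8 fits that left out a library. All its counts were whole numbers, as in the other 9 genes, so no reads were recorded as divided with another gene.

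Ncoa4 (101844405), the receptor that carries ferritin to the lysosome for the release of its iron, had 60.8, 61.7, 69.4 and 71.5 TPM in the controls and 60.7, 63.2, 66.9 and 68.8 TPM in the cold. The order of the replicate numbers was the same in both groups. Its fold change was 0.975 (95% interval 0.899 to 1.06).

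The storage and uptake genes were also set against each other within libraries, as a description with no test, chosen after the values were seen. The ratio of Fth1 to Tfrc in TPM was 13.9 ± 2.44 in the controls and 14.6 ± 1.66 in the cold, with the cold library higher in 3 of 4 pairs. The ratio of Fth1 to Ftl, the gene of the ferritin light chain, was 4.4, 3.99, 4.29 and 5.02 in the controls and 4.74, 5.09, 4.72 and 5.16 in the cold. The cold library was the higher in 4 of 4 pairs, and the groups overlapped.

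Slc40a1 (101824572) encodes ferroportin, the only known iron exporter of mammalian cells. It had 7.83, 7.11, 3.80 and 3.78 TPM in the controls and 7.62, 6.80, 4.18 and 3.75 TPM in the cold. Replicates 1 and 2 stood above replicates 3 and 4 in both groups, and the means of the groups, 5.63 ± 2.15 and 5.59 ± 1.91 TPM, differed by far less than their SD. edgeR gave a log2 difference of −0.038 with a standard error of 0.33 (adjusted p = 0.999), and its sign differed between fits. With the replicate block the fold change was 0.98 (95% interval 0.868 to 1.11).

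Hmox1 (101833770) encodes heme oxygenase 1, the inducible enzyme that frees iron from heme. It had 168, 164, 89.3 and 97.2 TPM in the controls and 146, 155, 92.9 and 91.6 TPM in the cold. Again replicates 1 and 2 were the high libraries of both groups, and the cold library was lower in 3 of 4 pairs. The control mean was 130 ± 42.4 TPM and the cold mean 122 ± 34.1 TPM. The log2 difference of −0.12 in edgeR, with a standard error of 0.28 (adjusted p = 0.999), was the largest of the 10 genes. With the replicate block it was −0.10 (standard error 0.047, unadjusted p = 0.0479, edgeR adjusted p = 0.268). In replicates 1 and 2 alone, edgeR called Hmox1 lower (log2 fold change −0.20, adjusted p = 0.00897), in a fit that called 11.6% of all genes. In replicates 3 and 4 alone, where 0.397% of all genes were called, its log2 fold change was −0.0037 (edgeR adjusted p = 0.999). The difference between these fits was not tested.

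Ireb2 (101839993) and Aco1 (101826983) encode the iron regulatory proteins, and the product of Aco1 is a cytosolic aconitase when it holds an iron-sulfur cluster. Ireb2 had 23.5, 24.6, 21.6 and 24.2 TPM in the controls and 23.7, 25.2, 21.4 and 20.5 TPM in the cold. Cold replicates 3 and 4 were below the control range and cold replicate 2 above it. The log2 difference in edgeR was −0.069 with a standard error of 0.087 (adjusted p = 0.999), negative in all 19 alternative fits and past the threshold in none of them.

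Aco1 had 62.4, 61.4, 57.2 and 59.7 TPM in the controls and 64.3, 63.6, 59.6 and 58.2 TPM in the cold, the narrowest spread of the list as a ratio of highest to lowest value. The cold library was higher in 3 of 4 pairs, with a fold change of 1.01 (95% interval 0.907 to 1.12). The ratio of Aco1 to Ireb2 was 2.57 ± 0.101 in the controls and 2.71 ± 0.137 in the cold. It was higher in the cold in 4 of 4 pairs, the ranges of 2.46 to 2.65 and 2.52 to 2.84 overlapped, and no test was made.

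The libraries differed in these genes by replicate number. The number was tested as a term of the blocked edgeR fit, a test chosen after the values were seen. Of the 10 genes, 6 differed between replicate numbers at an adjusted p under 0.05, where 35.4% of all genes tested did, so such differences were common in the table. They were Hmox1 (edgeR adjusted p = 1.60e-09), Slc40a1 (3.92e-07), Fth1 (3.60e-05), Slc39a14 (0.00133), Ireb2 (0.00450) and Aco1 (0.0170). Tfrc (edgeR adjusted p = 0.156), Ncoa4 (0.157), Slc11a2 (0.623) and Steap3 (0.772) did not pass.

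The direction was not shared. The mean of replicates 1 and 2 over both groups was 1.89-fold that of replicates 3 and 4 for the exporter Slc40a1 (7.34 against 3.88 TPM) and 1.71-fold for Hmox1 (159 against 92.7 TPM). It was 1.15-fold for Fth1, 1.07-fold for Aco1 and 1.22-fold for Ftl, and in each of these genes all values of replicates 1 and 2 were the higher. The order was the opposite for Slc39a14, where replicates 3 and 4 had 1.29-fold the mean of replicates 1 and 2. In Ncoa4 (1.12-fold) and Tfrc (1.10-fold), which did not pass the test, all values of replicates 3 and 4 were also above those of replicates 1 and 2. Of all 75 other iron genes tested, 27 differed between replicate numbers in edgeR at an adjusted p under 0.05, against 35.4% of all genes. Among the 9 other uptake genes tested these were 4, namely Steap1, Steap2, Slc39a8 and Lrp1, a share not far from that of all genes. These 4 had lower means in replicates 1 and 2, at 0.721, 0.748, 0.717 and 0.828 of those of replicates 3 and 4.

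Marker genes of cell types were set beside the same split. The summed TPM of the 6 markers of differentiating myocytes lay between 994 and 2722 in replicates 1 and 2 and between 590 and 1398 in replicates 3 and 4. For the 7 fibroblast markers these ranges were 1201 to 1292 and 1472 to 1739, and for the 6 macrophage markers with values 26.3 to 30.8 and 40.3 to 55.9, most of it Cd68. The fibroblast and macrophage sums were higher in replicates 3 and 4, where Slc40a1 and Hmox1 were lower. Col1a1 and Col1a2 of the fibroblast list, however, had the higher mean in replicates 1 and 2. So did Mrc1, Ptprc and Adgre1 of the macrophage list, and Marco had the same mean in both sets. The macrophage sum thus followed Cd68 and Csf1r alone. The sum of the 7 satellite cell and myoblast markers lay between 1825 and 2169 in replicates 1 and 2 and between 1690 and 1910 in replicates 3 and 4. Its members went both ways: Myod1, Cdh15, Des and Itga7 had the higher mean in replicates 1 and 2. Pax7, Myf5 (109 against 192 TPM) and Vcam1 had it in replicates 3 and 4. The part of these markers in the levels of the iron genes was not tested. The treatment labels of control replicates 1 to 4 read 3, 4, 5 and 6 days at 37°C, while their titles read day 3. The cold libraries carry no such days, and the part of these days in the replicate differences was not tested. Beyond this, the labels do not say whether a replicate number marks an animal, a culture or a day.

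**Figure D3:**
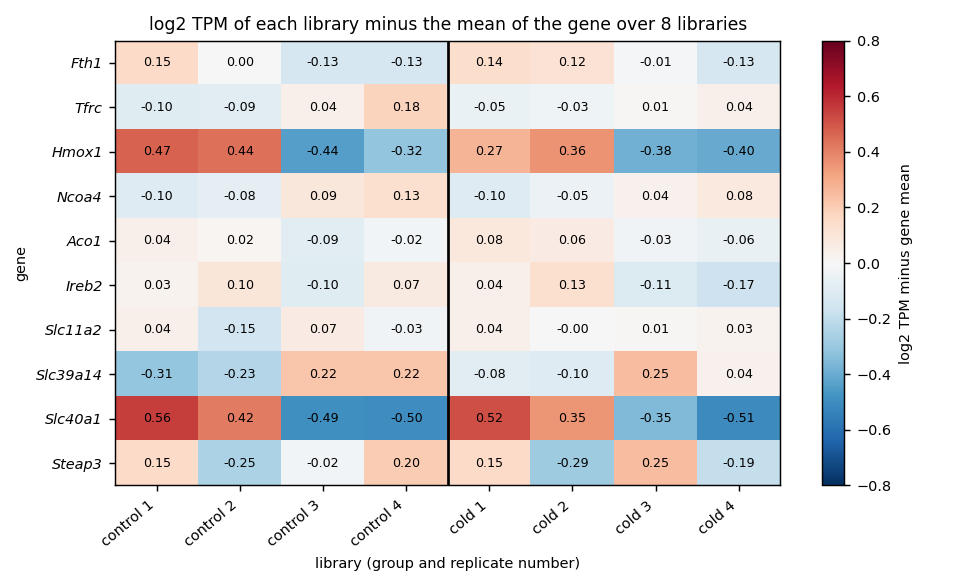
Log2 TPM of each library (columns, controls left of the black line and cold right of it) minus the mean of the gene over the 8 libraries, for the 10 iron genes in order of level. Hmox1 and Slc40a1 are above their mean in replicates 1 and 2 of both groups and below it in replicates 3 and 4, Slc39a14 shows the opposite order, and in no gene do all controls lie on one side of the mean and all cold libraries on the other.

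The rest of the pathway was read from a list of 92 other genes of iron uptake, storage, export, control, heme and iron-sulfur clusters. Values were present for 83 and 75 were tested, of which 42 had positive and 33 negative log2 fold changes with a median of 0.0071. At an adjusted p under 0.05, edgeR called 0 of 75, with 8 (10.7%) at an unadjusted p under 0.05 against 6.7% of all genes, while DESeq2 called 0 of 75, against 1.14% of all genes, and limma 0 of 77, against 0.029%. With the replicate block edgeR called 2 lower and 0 higher, or 2.67% of the 75 against 5.33% of all genes (4.07% lower and 1.26% higher). The groups did not overlap in 5 of 75 (6.67%, against 4.68% of all genes), among them Hjv, Lyrm4, Pcbp2 and Snx3, of which Lyrm4 was named after its values were seen.

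The 2 genes called with the block were Hjv and Flvcr2. Hjv (101842995) encodes hemojuvelin, a coreceptor for bone morphogenetic proteins that is made in skeletal muscle and liver and is known for the control of hepcidin, the hormone that closes ferroportin. It had 6.82, 7.05, 3.34 and 4.00 TPM in the controls and 3.06, 3.31, 2.21 and 2.15 TPM in the cold. The cold value was lower in 4 of 4 pairs, and the highest cold value lay just under the lowest control value. The log2 difference was −1.01 with a standard error of 0.30 (edgeR adjusted p = 0.415), and with the block its adjusted p was 3.66e-05, with a standard error of 0.13. The counts behind these values were between 47 and 161 per library.

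The summed markers of differentiating myocytes were also lower in the cold libraries. Their summed TPM lay between 1299 and 2722 in control and between 590 and 1168 in cold libraries. Acta1, Myh3 and Tnnt1 of this list were already reported as lower in the cold by the study, from these same libraries. Their calls are thus no independent support. In the blocked edgeR fit 6 of 6 were lower in the cold at an adjusted p under 0.05, against 4.07% of all genes. Myog and Acta1 were among them, and 0 of 6 were called without the block. The summed fibroblast markers lay between 1217 and 1739 in control and between 1201 and 1687 in cold libraries, and 0 of 7 were called in that fit. Of the 7 satellite cell and myoblast markers, 3 (Myod1, Cdh15 and Itga7) were also lower in the cold in the blocked fit, and their sum lay between 1770 and 2169 in control and between 1690 and 1992 in cold libraries. The part of these markers in the levels of Hjv and Flvcr2 was not tested.

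Flvcr2 (101830925), a membrane transporter of the FLVCR family, had 5.47, 5.42, 3.86 and 5.27 TPM in the controls and 2.85, 3.99, 2.56 and 3.54 TPM in the cold. The cold value was the lower one in 4 of 4 pairs, and cold replicate 2 lay above control replicate 3. The log2 difference was −0.65 in both edgeR fits, with an adjusted p of 0.332 without the block (standard error 0.18) and 0.000155 with it (standard error 0.096).

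**Figure D4:**
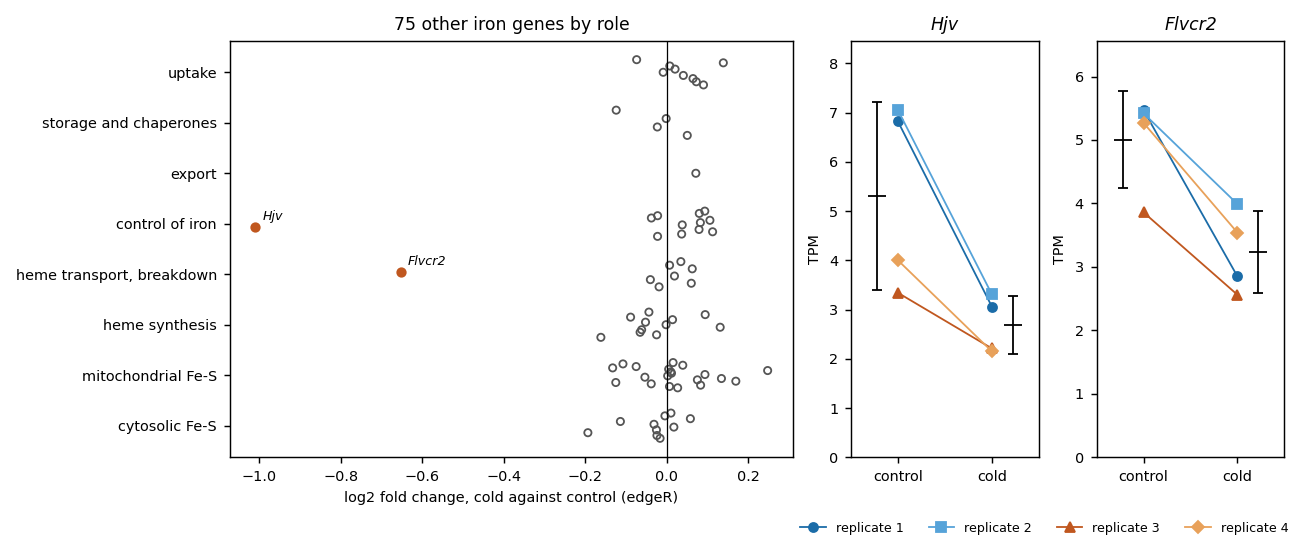
Left, log2 fold change of the 75 other iron genes tested (x axis, cold against control, fit without the block) by role, with the genes called in the fit with the replicate block filled and named. Right, TPM of Hjv and Flvcr2 in each library, with lines joining libraries of the same replicate number and bars for the mean and SD of 4 libraries; both genes are lower in the cold in 4 of 4 pairs. The other genes lie closer to 0 than these.

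No other gene of this list was called in either fit. Among uptake genes, 9 were tested, the most abundant being Snx3, which sorts the transferrin receptor in endosomes, at 162 ± 4.31 TPM in the controls and 171 ± 2.97 TPM in the cold. The largest log2 fold change of this group was 0.14, for Hfe, a partner of the transferrin receptor. Tfr2 was at most at 0.29 TPM, Lcn2 at 1.01 TPM and Scara5 at 0.02 TPM, Steap4 was at 0 in all 8 libraries, and these 4 were not tested.

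Among storage genes and iron chaperones, 4 were tested. Pcbp2, an iron chaperone that delivers iron to ferritin, averaged 622 ± 10.8 TPM in the controls and 651 ± 11.2 TPM in the cold, with decimal counts in all 8 libraries that leave its level uncertain. Ftl had 552 ± 83.5 TPM in the controls and 512 ± 56.8 TPM in the cold, which was lower in 4 of 4 pairs. Its log2 difference was −0.12, at an edgeR adjusted p of 0.999 without the block and 0.152 with it. In replicates 1 and 2 alone edgeR called Ftl lower (log2 fold change −0.22, adjusted p = 0.00396), in a fit that called 11.6% of all genes. In replicates 3 and 4 alone, where 0.397% of all genes were called, its log2 fold change was −0.019.

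Of the other export genes, Mon1a, which helps bring ferroportin to the cell surface, had 5.34 ± 0.691 TPM in the controls and 5.69 ± 0.456 TPM in the cold (controls are given first from here on) and was the only one tested. The ferroxidase genes Heph and Hephl1 reached at most 0.13 and 0.01 TPM and Prom2 0.02 TPM. Of the 12 genes tested for the control of iron, Skp1, a subunit of the ubiquitin ligase that marks iron regulatory proteins for breakdown, was the most abundant at 320 ± 13.4 and 319 ± 3.09 TPM, with decimal counts in all 8 libraries. Tmprss6, a protease that cuts hemojuvelin, was at most at 0.21 TPM and was not tested.

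In heme synthesis, 11 genes were tested, with a median log2 fold change of −0.044. Uros, an enzyme of the pathway, had the largest log2 fold change, −0.16. Among the 8 genes of heme transport and breakdown, the biliverdin reductase gene Blvrb was the most abundant at 134 ± 17.8 and 136 ± 10.7 TPM.

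Of the 20 mitochondrial genes of iron import and iron-sulfur assembly, the chaperone gene Hspa9 was the most abundant at 479 ± 28.6 and 517 ± 37.6 TPM. Of the 10 cytosolic genes of cluster assembly, Glrx3 was the most abundant at 199 ± 17.1 and 203 ± 17.8 TPM. Ndor1, a reductase of that pathway, had the largest log2 fold change, −0.19, at an edgeR adjusted p of 0.708 without the block and 0.182 with it.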

How the data were processed

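The RNA was made into libraries with an mRNA library kit (Optimal Dual-mode) and sequenced by a service provider. HISAT and HISAT2 are named in the submitters' processing notes, and the counting program and genome build are not given in the sources used here. The deposited table gives the expected counts per gene that the authors estimated from the reads, not normalized, of which between 96.4% and 96.6% are whole. It also gives TPM values, which the authors scaled to each library, and normalized counts, deposited as a signal with 1 factor per library, which were not used. Expected counts were rounded and tested over the whole table with edgeR 4.0.16 (R 4.3.3): filterByExpr, TMM, a quasi-likelihood F test between the groups, Benjamini-Hochberg adjustment, calls at an adjusted p under 0.05 with or without an absolute log2 fold change of 1. Standard errors are the absolute log2 fold change over the square root of F, and 95% intervals use the fit's degrees of freedom. Single genes were also tested on log2(TPM + 0.1) over all 70 arrangements.

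Replicate numbers are shared by the groups. Deviations from the group means correlated at 0.609, 0.618, 0.647 and 0.659 between same-numbered control and cold libraries. Between replicates 1 and 2 of different groups they correlated at 0.569 and 0.591, and between replicates 3 and 4 at 0.472 and 0.432. Across these sets the correlations were −0.609 to −0.553. Much of the likeness thus follows the split of replicates 1 and 2 from 3 and 4, and pairing by single number is less certain. The numbers were taken as pairs, and a blocked fit stands beside the main one. The first principal component parted replicates 1 and 2 from 3 and 4. Replicates are called biological by the study, and the sources used here do not say that each came from its own animal, so p-values measure the spread between these libraries, which may be technical.

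Alternatives were DESeq2 1.42.0, RLE factors, library totals, other count filters, the block, limma 3.58.1 on log2 TPM, leaving out each library, and replicates 1 and 2 or 3 and 4 alone. The replicate number test and the TPM ratios were added after seeing the data. The 10 genes and the lists were chosen with earlier results of these data known. Of 96 listed symbols of other iron genes, 4 were older names, 7 genes had no entry under their symbol, and 2 had entries without values. Named by rule were, per role, the gene highest in TPM and the gene furthest changed, all called genes, and untested genes of uptake, storage, export and control. Some genes named by this rule are not reported here. IDs and symbols of all 10 genes matched RefSeq (BCM_Maur_2.0). Counting error is the square root of the count. Depth intervals cover counting error only. Scripts were tested on simulated data. Figures were drawn with matplotlib 3.10.9.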

Additional observations from a re-analysis of the deposited data

Results flagged for a closer look

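In each of the 20 groups of 4 TPM values of the 10 iron genes, the gap of the highest and of the lowest library to its neighbour was divided by the range of the group (Dixon's test). It passed the 95% limit in 0 of 20 groups, where chance gives about 1.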

How the results depend on the processing

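The number of iron genes called stayed at 0 of 10 in 18 of 19 alternatives and was 1 (Hmox1) in replicates 1 and 2 alone. Of the 75 other iron genes, 2 (2.67%) were called with the replicate block, against 5.33% of all genes. In replicates 1 and 2 alone, 7 of the 75 were called (1 of them also past 2-fold), against 11.6% of all genes. When any library was left out, 0 of the 75 were called. Among the named iron genes the block changed no other call. Over the whole table, 9 genes were called without the fold threshold, against 142 with DESeq2, 14 with library totals, 25 in genes with 1 count or more, 4 with a mean of 10 counts, 667 with the replicate block, 4 with limma at each of 3 pseudocounts (0.1, 1 and 0.01), 1442 in replicates 1 and 2 and 50 in replicates 3 and 4. With the fold threshold, 5 genes became 66, 8, 15, 3, 106, 3 (at each pseudocount), 183 and 28 in the same order. Leaving out single libraries gave 0 to 46 genes without and 0 to 34 with the fold threshold, the highest without control replicate 3. The cause of these moves was not tested.

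No fold change with a turned sign was past the threshold in the fit that turned it. Slc40a1 turned to 0.0052, 0.0025 and 0.0056 with limma at pseudocounts of 0.1, 1 and 0.01 and to 0.080 in replicates 3 and 4, and its difference of log2 levels from 0.0052 to −0.011 on log2 CPM. In replicates 3 and 4, Slc39a14 turned to −0.064 and Hspa9 to −0.0052. In replicates 1 and 2, Aco1 turned to −0.015, Hfe to −0.0020, Mon1a to −0.086, Blvrb to −0.095 and Glrx3 to −0.021, and Blvrb to −0.00062 in genes with 1 count or more. Leaving out single libraries gave log2 fold changes of −0.063 to 4.4e-05 for Tfrc, −0.012 to 0.11 for Fth1, −0.23 to 0.17 for Slc40a1, −0.014 to 0.051 for Slc11a2, −0.058 to 0.088 for Slc39a14, −0.14 to 0.012 for Steap3, −0.28 to 0.039 for Hmox1, −0.032 to 0.038 for Aco1, −0.065 to 0.073 for Blvrb, −0.022 to 0.053 for Glrx3 and −0.016 to 0.14 for Mon1a. Ncoa4 and Ireb2 kept their sign in all 19 alternatives. Hjv ranged from −1.19 to −0.74 and Flvcr2 from −0.78 to −0.51. In replicates 1 and 2 alone, Hspa9 (0.17) and Ndor1 (−0.34) also passed the threshold, in the fit that called 11.6% of all genes.

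Depth limits Steap3, at 14 to 20 reads per library, and the untested genes of export and uptake.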

Other observations

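The genes whose log2 TPM ran most like the 3 iron genes of largest fold change were looked up over the 8 libraries among 11425 tested genes with a symbol, as a description. For Hmox1 they were Cdk5r1, Rbm24 and Atp2b4 (Pearson's r of 0.994, 0.993 and 0.992), for Ireb2 Zbed4, Arfgap1 and Oga (0.988, 0.963 and 0.962), and for Steap3 Rad1, Rnf170 and Trmt10c (0.946, 0.908 and 0.883). These points share libraries. Hmox1 differed between replicates 1 and 2 and replicates 3 and 4, and Steap3, at 14 to 20 reads per library, varied no more than counting error.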
